A study of Homo sapiens with 4 samples.

Results

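The urokinase system and the matrix proteases linked to it were followed through 10 genes, chosen by name: PLAU, PLAT, PLAUR, MMP1, MMP2, MMP7, MMP14, TIMP1, TIMP2 and TIMP3. They are 10 of 58174 named genes in the deposited table, and all 10 were present there. The RNA came from SW1990 and PANC-1 cells, established human pancreatic cancer lines, either unirradiated or given 10 Gy of X-rays, and the study asked how radiation alters the transcriptome of each line. Each line and treatment had 1 library, so 4 libraries were sequenced in all. The lines were grown in different media, PANC-1 cells in DMEM, so line and medium cannot be told apart. The time between radiation and RNA collection is not given in the sources used here.

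The counts on named genes summed to 17851815 in unirradiated SW1990, 18305682 in irradiated SW1990, 23323266 in unirradiated PANC-1 and 20026595 in irradiated PANC-1 cells. A gene with 0 counts may lie anywhere below a floor of 3 counts, which is 0.168, 0.164, 0.129 and 0.15 CPM, or counts relative to the sum of the library, in the same order. Floors and intervals cover counting error only. Levels are given as FPKM, in which the length of a transcript and the size of the library are scaled out, and changes as log2 ratios of scaled counts.

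Urokinase (PLAU) and tissue plasminogen activator (PLAT) are serine proteases that cut plasminogen into plasmin, which degrades fibrin and can activate some pro-metalloproteinases. The urokinase receptor (PLAUR) holds urokinase at the cell surface. Matrix metalloproteinases cut collagens and other matrix proteins, and the tissue inhibitors of metalloproteinases (TIMPs) block them. In pancreatic cancer, a tumour with a dense matrix, these genes are known for their part in invasion.

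Both lines expressed epithelial genes, but not to the same extent. The 7 epithelial markers summed to an FPKM of 2894 and 3728 in SW1990 and of 1410 and 1639 in PANC-1 cells (values are given with the unirradiated library first from here on), with the keratin KRT8 as the most abundant in all 4 libraries. EPCAM, an epithelial adhesion molecule, had an FPKM of 217 and 218 in SW1990 but 2.28 and 2.81 in PANC-1 cells. CDH1, which encodes E-cadherin, had 140 and 239 in SW1990 but 0.673 and 1.21 in PANC-1 cells. Between the lines, 5 of the 7 epithelial markers passed the test used for the line comparison, all 5 higher in SW1990, where 21.4% of all genes tested were. Of the 8 fibroblast markers, COL1A2, DCN, FAP and PDGFRA were at 0 counts in all 4 libraries. COL1A1, the most abundant of that list in PANC-1 cells, had 103 and 165 counts in SW1990 and 965 and 1315 in PANC-1 cells, COL3A1 0 and 0 against 80 and 77, and PDGFRB 129 and 63 against 0 and 3. The part of this difference between the lines in the results was not tested.

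The 10 genes differed in level by orders of magnitude, and their order differed between the lines. In unirradiated SW1990 cells the order by FPKM was TIMP1, TIMP3, TIMP2, PLAUR, PLAU, MMP14 and PLAT, with MMP1, MMP2 and MMP7 at 0. In unirradiated PANC-1 cells it was PLAU, TIMP1, TIMP2, MMP2, PLAUR, MMP1, MMP14, PLAT, TIMP3 and MMP7. Summed over the 10 genes, the FPKM was 120 and 159 in SW1990 and 475 and 580 in PANC-1 cells. Inhibitors made up most of the sum in SW1990 cells, and PLAU alone most of it in PANC-1 cells.

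**Figure D1:**
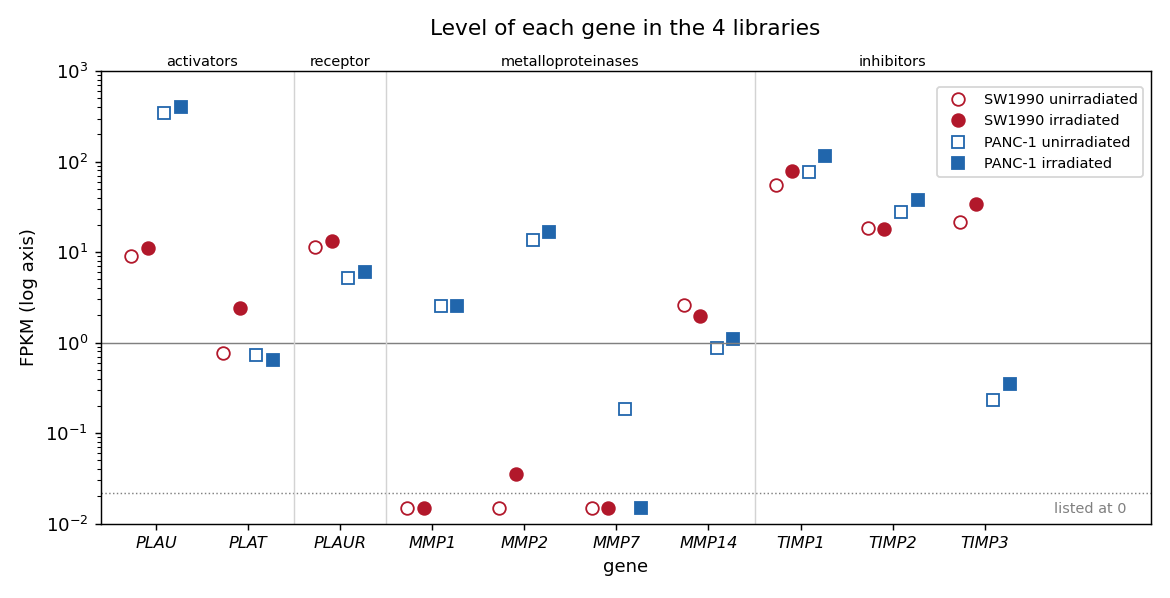
FPKM of each gene (log axis) in the 4 libraries, with SW1990 as circles, PANC-1 as squares, unirradiated libraries open and irradiated libraries filled. Values listed at 0 are drawn under the dotted line, and the solid line marks an FPKM of 1. PLAU lies at 347 and 398 in PANC-1 cells against 9.14 and 11.0 in SW1990 cells, while TIMP3 lies at 0.231 and 0.353 against 21.6 and 33.9.

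The genes lie on several chromosomes, and the deposited coordinates of all 10 were those of GENCODE release 29 on GRCh38. PLAU (ENSG00000122861) spans chr10:73909177-73917497 on the plus strand, PLAUR (ENSG00000011422) chr19:43646095-43670547 on the minus strand, and TIMP3 (ENSG00000100234) chr22:32801701-32863043 on the plus strand. MMP1 (ENSG00000196611) spans chr11:102789920-102798160 and MMP7 (ENSG00000137673) chr11:102520508-102530753, both on the minus strand of the same chromosome. MMP2 (ENSG00000087245) spans chr16:55389700-55506691 and MMP14 (ENSG00000157227) chr14:22836557-22849027, both on the plus strand. TIMP1 (ENSG00000102265) spans chrX:47582313-47586789 on the plus strand and TIMP2 (ENSG00000035862) chr17:78852977-78925387 on the minus strand. Whether the counting used strand is not given in the sources used here, so reads from overlapping genes cannot be told apart. Genes that overlap a member had at most 108 counts in a library at TIMP2 and 72 at PLAU. SYN3, on the strand opposite TIMP3 and with no exon over its exons, had 2 and 3 counts in SW1990 but 33 and 47 in PANC-1 cells, about as many as TIMP3 itself there.

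Promoters of 6 of the 10 genes, from 250 bases before to 50 after the start, were found in a RefSeq table on GRCh38.p14. PLAT, MMP1, MMP2 and TIMP2 were not matched. The stretches of 3 genes with unlike patterns of expression are shown 5′ to 3′, ended before the first exonic base. They are TIMP3, high in SW1990 only, MMP14, low in all 4 libraries, and MMP7, at or near 0 in all 4. Capitals mark 3 kinds of letters, searched on either strand: the AP-1 core (TGANTCA), the TATA box core (TATAAA), and the SP1 core (GGGCGG).
TIMP3 (chr22:32801605-32801700, plus strand): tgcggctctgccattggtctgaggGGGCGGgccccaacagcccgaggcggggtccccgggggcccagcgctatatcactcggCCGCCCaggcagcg
MMP14 (chr14:22836485-22836556, plus strand): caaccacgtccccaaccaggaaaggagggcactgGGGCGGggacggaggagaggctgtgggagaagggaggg
MMP7 (chr11:102530754-102530847, minus strand): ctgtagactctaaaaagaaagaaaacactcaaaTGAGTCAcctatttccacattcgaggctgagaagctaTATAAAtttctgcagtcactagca

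MMP7 held the AP-1 letters at position -67 from its start and TATA box letters at -30. PLAUR held AP-1 letters too, at -186. AP-1 letters occur in 7.71% of the 35116 promoters in the table and TATA box letters in 11.5%. SP1 letters occur in 45% of promoters and were found in those of PLAU, MMP14, TIMP1 and TIMP3. The PEA3 letters AGGAAG, in 33.6% of promoters, were found in PLAU, PLAUR, MMP7 and TIMP1, and the TCF letters CTTTGNT, in 15.4%, in PLAU. The 250 bases before the TIMP3 start held 26 CpG dinucleotides, those before the downstream start of PLAU 24, those before its upstream start 4 and those before MMP7 3, against a median of 11 over all promoters. These matches describe the letters in the window and not binding.

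Between the lines, 7 of 9 tested genes differed, 5 of them higher in PANC-1 and 2 higher in SW1990 cells. MMP1 and MMP2 passed the filter on low counts only through the PANC-1 libraries, so the count that includes them describes these genes and supports nothing further. The test was edgeR's quasi-likelihood test over the 4 libraries with treatment as a covariate and Benjamini-Hochberg adjustment at 0.05. The 4 libraries leave 1 residual degree of freedom, and nothing says that they came from separate cultures, so the p-values measure the spread between these libraries only. With 1 library per line and treatment, that spread includes any difference of the radiation change between the lines. Differences between the lines were common, at 43.6% of 18180 genes, 21.4% higher in SW1990 and 22.2% higher in PANC-1. The median difference of the 9 tested genes, SW1990 over PANC-1, was -0.64 on the log2 scale, beside 0.00 over all genes. This median includes MMP1 and MMP2, so it too is a description and shows no lean of the set toward a line. In RNA of whole cultures, fewer cells expressing a gene and less RNA per cell cannot be told apart.

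PLAU, the urokinase gene, had 435 and 546 counts in SW1990 and 23372 and 20731 counts in PANC-1 cells. Its counts in the lines did not overlap, though the share of all genes without overlap is not given here. It ranked 100th and 81st by FPKM among all genes in the PANC-1 libraries but 7524th and 6615th in the SW1990 libraries. PLAU was 47.8-fold higher in PANC-1 in the unirradiated pair and 36.8-fold in the irradiated pair. Over the 4 libraries the log2 difference, SW1990 over PANC-1, was -5.39 (SE 0.19, edgeR adjusted p = 0.000804), with PANC-1 higher in 2 of 2 pairs.

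PLAUR, which encodes the receptor, went the other way. It had 280 and 356 counts in SW1990 and 149 and 166 in PANC-1 cells. The receptor was 2.11-fold higher in SW1990 in the unirradiated pair and 2.22-fold in the irradiated pair, with a log2 difference of 1.11 (SE 0.24, edgeR adjusted p = 0.021). This call was lost with DESeq2's Wald test, at a log2 difference of 1.13. The FPKM ratio of ligand to receptor, PLAU over PLAUR, was 0.806 and 0.825 in SW1990 cells and 66.6 and 65.3 in PANC-1 cells, so it was close within a line and far apart between lines.

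PLAT, the other activator, was low in both lines. It had 41 and 138 counts in SW1990 and 44 and 36 in PANC-1 cells. Without radiation the lines lay close together, at a log2 difference of 0.07 with a 95% counting interval from -0.58 to 0.71. In the irradiated pair PLAT was 3.96-fold higher in SW1990. Over the 4 libraries the log2 difference was 1.05 (SE 0.59) and did not pass the test (edgeR adjusted p = 0.211). The unlike change of PLAT after radiation in the lines enters this SE.

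Among the metalloproteinases, MMP2, a gelatinase, lay on the PANC-1 side. MMP2 had 0 and 3 counts in SW1990 and 1428 and 1435 in PANC-1 cells. It was at least 424-fold higher in PANC-1 in the unirradiated pair, taking 3 counts as the floor for the library at 0. In the irradiated pair it was 463-fold higher, a log2 difference of -8.86 with a counting interval from -11.13 to -7.31. It was higher in PANC-1 in 2 of 2 pairs, which is a description, since MMP2 passed the filter on low counts only through that line.

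MMP1, an interstitial collagenase, was also on the PANC-1 side. It had 0 counts in both SW1990 libraries and 145 and 125 counts in PANC-1 cells, where its FPKM was 2.54 in each. It was at least 43.0-fold higher in PANC-1 in the unirradiated pair and at least 40.3-fold in the irradiated pair against the same floor per library. MMP7, or matrilysin, had 6 counts in unirradiated PANC-1 cells and 0 in the other 3 libraries, and did not pass the filters on low values.

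MMP14, a membrane-bound metalloproteinase that activates pro-MMP2 together with TIMP2, had nearly the same counts everywhere. It had 85 and 95 counts in SW1990 and 92 and 90 in PANC-1 cells, a log2 difference of 0.09 over the 4 libraries (SE 0.32, edgeR adjusted p = 0.843). Its FPKM values read differently, at 2.58 and 1.96 in SW1990 against 0.871 and 1.10 in PANC-1 cells, which is 2.96-fold and 1.78-fold higher in SW1990. The annotation lists 6 transcripts of MMP14, and FPKM depends on the length assigned to them. The part of transcript length in this gap was not tested.

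Of the inhibitors, TIMP3, which binds to the matrix, had 2189 and 3491 counts in SW1990 and 31 and 41 in PANC-1 cells. TIMP3 was 79.3-fold higher in SW1990 in the unirradiated pair and 87.9-fold in the irradiated pair. Its log2 difference of 6.38 (SE 0.19, edgeR adjusted p = 0.00076) lay in the same direction as that of PLAUR and was far larger. At an FPKM of 21.6 and 33.9 it stood above TIMP2 in SW1990 cells, whereas in PANC-1 cells its FPKM stayed under 1.

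TIMP1, a soluble inhibitor, had 1074 and 1481 counts in SW1990 and 1904 and 2338 in PANC-1 cells. It was higher in PANC-1 by a small margin, at 1.58-fold and 1.53-fold in the pairs and a log2 difference of -0.64 (SE 0.14, edgeR adjusted p = 0.0226). TIMP2, which both inhibits MMP2 and takes part in its activation, had 1444 and 1358 counts in SW1990 and 2784 and 3305 in PANC-1 cells. TIMP2 was 1.72-fold and 2.36-fold higher in PANC-1 cells (log2 difference -1.01, SE 0.17, edgeR adjusted p = 0.012). Both inhibitors were higher in PANC-1 in 2 of 2 pairs.

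Summed by role, the metalloproteinases reached an FPKM of 2.58 and 1.99 in SW1990 and 17.3 and 20.5 in PANC-1 cells. MMP14 gave nearly all of the SW1990 sum, and MMP2 most of the PANC-1 sum. The 3 inhibitors summed to 96.1 and 130 in SW1990 and to 105 and 155 in PANC-1 cells. The inhibitor sums of the lines were thus close, although TIMP3 was a main term only in SW1990 cells. The FPKM ratio of MMP2 to TIMP2 was 0 and 0.00195 in SW1990 cells and 0.486 and 0.449 in PANC-1 cells.

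**Figure D2:**
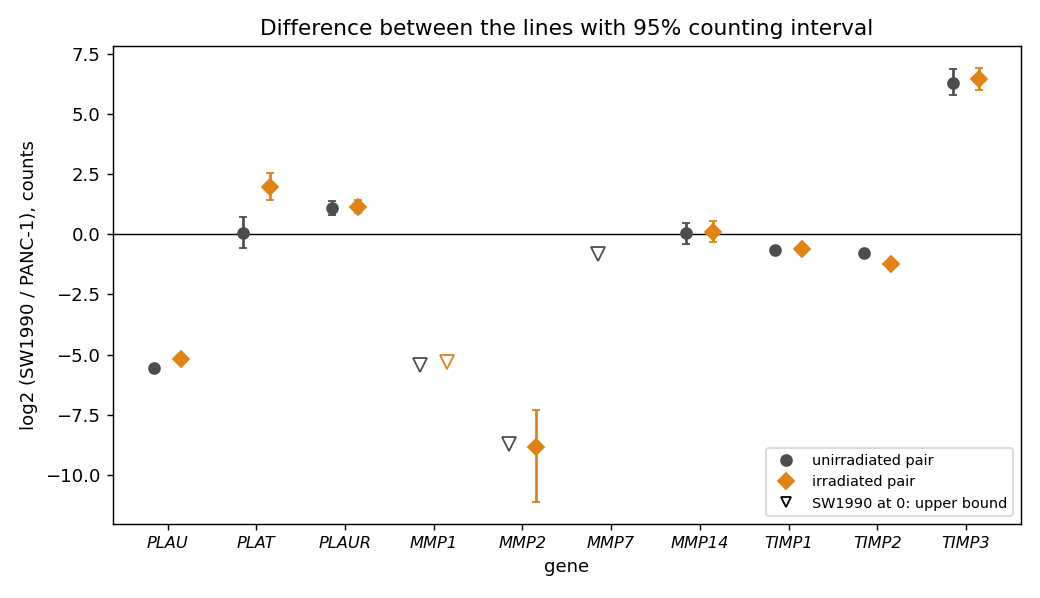
Log2 ratio of scaled counts, SW1990 over PANC-1, for each gene in the unirradiated pair (grey circles) and the irradiated pair (orange diamonds), with 95% counting intervals. Open triangles mark genes with 0 counts in SW1990, where only an upper bound can be given. TIMP3 lies above 6 in both pairs, PLAU below -5, and PLAT moves from 0.07 to 1.99 between the pairs.

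The radiation comparison asked which genes changed after 10 Gy within each line. Among the 10 genes, PLAT was the only one called, in SW1990 cells, where it rose. PLAT reached the test there only through the irradiated library, since its FPKM was under 1 in the other. A gene was called when the reads of the 2 libraries of a line differed at a q-value below 0.001 and by a fold change above 2, among genes that reached an FPKM of 1 in either library. With 1 library per condition, the test says how these libraries differed, not the conditions, and no replicate check exists.

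In SW1990 cells, 7 of the 10 genes were tested and 1 was called. Over all genes, 4.13% of 15731 were called, 2.26% as higher after radiation, so 1 of 7 is too few to set apart from that share. The log2 fold change was above 0 for 6 of the 7 and below 0 for TIMP2, with a median of 0.34 beside -0.01 over all genes. In PANC-1 cells, 7 genes were tested and 0 were called, against 4.7% of 15159 over all genes. There the log2 fold change was above 0 for 5 genes and below 0 for 2, with a median of 0.14 beside -0.02.

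PLAT rose in SW1990 cells from 41 to 138 counts, and its FPKM from 0.777 to 2.44. This was a 3.35-fold change, with a log2 fold change of 1.74 and a counting interval from 1.23 to 2.28. Of all genes tested in SW1990 cells, 1.65% changed upward by at least as much. Since PLAT reached the test only through its higher library, this share is a description and supports nothing further. The call was lost when a coefficient of variation of 0.2 or 0.4 between replicates was assumed. In PANC-1 cells PLAT had 44 and 36 counts, a log2 fold change of -0.16 with an interval from -0.84 to 0.51, and its FPKM was under 1 in both libraries. The log2 changes differed between the lines by 1.90 with a counting interval from 1.09 to 2.71, a difference that was not tested, as no residual degrees of freedom remain.

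The urokinase gene itself shifted little in either line. In SW1990 cells PLAU had a log2 fold change of 0.32, from 0.14 to 0.51. In PANC-1 cells it was -0.04, from -0.07 to -0.02, but 0.05 with library sizes scaled by total counts, which moved the median of all genes by 0.09 as well, and 0.20 from FPKM, which moved that median by 0.08. Relative to all genes, the total-count value is thus no different. For PLAUR the log2 fold change was 0.34, from 0.11 to 0.57, in SW1990 and 0.29, from -0.04 to 0.62, in PANC-1 cells. The receptor's values in the lines were close, and the PANC-1 interval includes 0.

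MMP14 in both lines, and MMP1 and MMP2 in PANC-1 cells, had log2 fold changes near 0. MMP7 went from 6 counts to 0 in PANC-1 cells, with an FPKM under 1 in both libraries. MMP14 had 0.15, from -0.28 to 0.59, in SW1990 and 0.10, from -0.34 to 0.53, in PANC-1 cells. Its FPKM ratio in SW1990 went the other way, at -0.40 on the log2 scale. In PANC-1 cells MMP2 had 0.14, from 0.03 to 0.24, and MMP1 -0.08, from -0.44 to 0.27. In SW1990 cells neither could be compared, since MMP1 had 0 counts in both libraries and MMP2 0 and 3.

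TIMP1 and TIMP3 had more counts in the irradiated library of both lines. TIMP1 had a log2 fold change of 0.46, from 0.34 to 0.57, in SW1990 and 0.43, from 0.34 to 0.51, in PANC-1 cells, and its FPKM went from 55.7 to 78.4 and from 76.7 to 117. TIMP3 had 0.67, from 0.59 to 0.74, in SW1990 cells, a 1.59-fold change that was under the limit of 2 but was called at a limit of 1.5. In PANC-1 cells TIMP3 had 31 and 41 counts and a log2 fold change of 0.53, from -0.17 to 1.26. None of these values passed the call rule at a fold change of 2.

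TIMP2 was the inhibitor whose values differed between the lines. Its log2 fold change was -0.10, from -0.20 to 0.01, in SW1990 cells and 0.38, from 0.30 to 0.45, in PANC-1 cells. The difference of -0.47, from -0.60 to -0.34, exceeds the counting error but was not tested against the spread between cultures. For TIMP1 the same difference was 0.03, from -0.11 to 0.17.

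Over the 4 libraries, with line as a covariate, radiation changed 0 of 9 tested genes at an adjusted p of 0.05, as it did over all genes (0%, 0 of 18180) with edgeR's quasi-likelihood test. At an unadjusted p under 0.05 there were 2 of the 9, TIMP1 and TIMP3, and 833 of all genes (4.58%). For TIMP1 the log2 change was 0.46 (SE 0.14) and for TIMP3 0.64 (SE 0.16), each with an edgeR adjusted p of 0.936. Each was higher in 2 of 2 irradiated libraries. A shared sign is common, since only 45.2% of 13228 genes tested in both lines had opposite signs. DESeq2 called 39 of all genes and limma on log2(FPKM + 1) called 1, with 0 of the 10 genes among them.

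**Figure D3:**
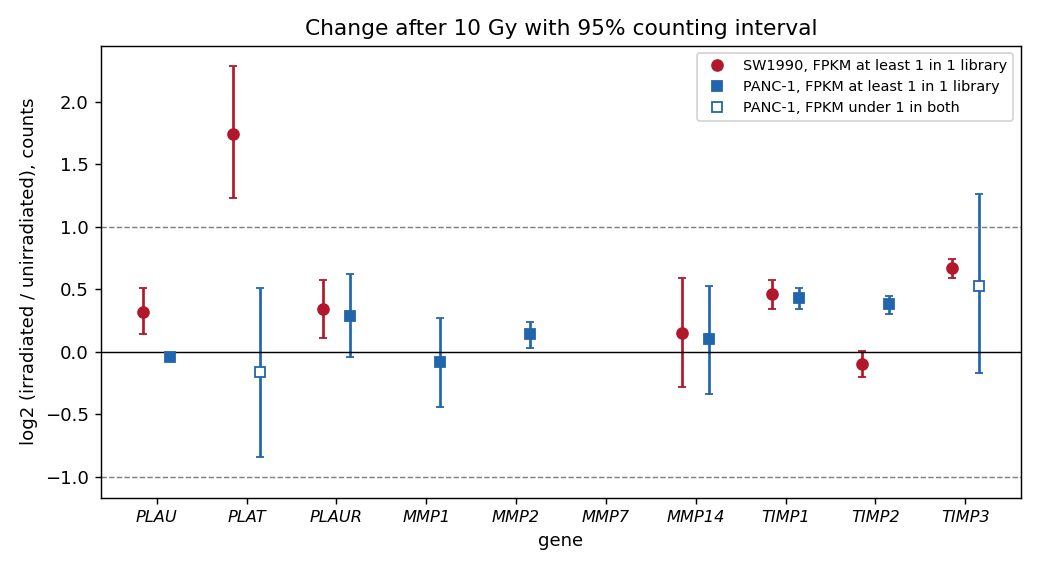
Log2 ratio of scaled counts, irradiated over unirradiated, for each gene in SW1990 (red circles) and PANC-1 (blue squares), with 95% counting intervals. Open squares mark genes with an FPKM under 1 in both PANC-1 libraries, and dashed lines mark a fold change of 2. PLAT in SW1990 cells, at 1.74, is the only value past a dashed line.

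The rest of the plasminogen system was described with 26 further genes. Of these, 17 were tested between the lines, with 6 higher in SW1990 and 6 higher in PANC-1, beside the 21.4% and 22.2% of all genes. As for MMP1 and MMP2, a gene near 0 in a line reaches this test only through the other line, so the counts for this list and the lists after it are descriptions. PLG, which encodes plasminogen, had 0 counts in all 4 libraries.

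The largest differences in the list, SW1990 over PANC-1, were those of ST14 and SPINT1. ST14 encodes matriptase, a membrane serine protease. It had an FPKM of 117 and 126 in SW1990 and 0.144 and 0.0788 in PANC-1 cells (log2 difference 9.80, SE 0.32). SPINT1 encodes an inhibitor of matriptase and had 1744 and 2366 counts in SW1990 and 8 and 22 in PANC-1 cells (log2 difference 7.23, SE 0.33). ST14 and SPINT1 were near 0 in PANC-1 cells, so their values are descriptions, given without a test result. Both were on the same side as TIMP3 and opposite to PLAU. ENO1, a glycolytic enzyme that can bind plasminogen at the cell surface, was the most abundant of the list, at 705 and 737 in SW1990 and 880 and 863 in PANC-1 cells, and did not pass the test.

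After radiation, 1 of 16 tested genes of this list was called in SW1990 and 1 of 11 in PANC-1 cells, too few to set apart from the 4.13% and 4.7% of all genes. VTN, which encodes vitronectin, a ligand of the urokinase receptor, rose in SW1990 cells from 211 to 462 counts, a log2 fold change of 1.12 from 0.89 to 1.37. It had 0 and 15 counts in PANC-1 cells and was not tested there. VLDLR, an endocytic receptor of the LDL receptor family, fell in PANC-1 cells from 393 to 129 counts, a log2 fold change of -1.48 from -1.78 to -1.19. In SW1990 cells VLDLR had 94 and 87 counts, and its log2 fold change of -0.12 was not called. By FPKM the VLDLR log2 ratio was -1.09 in SW1990 and -0.93 in PANC-1 cells, so the contrast between the lines rests on the counts.

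Of 19 further metalloproteinases, between 8 and 14 had 0 counts in a library. Between the lines 6 were tested, with 2 higher in SW1990 and 2 higher in PANC-1, where 43.6% of all genes passed. The 2 higher in PANC-1, the membrane-type enzymes MMP16 and MMP17, had 0 counts in both SW1990 libraries and passed the filter only through PANC-1. In PANC-1 cells MMP16 had 1849 and 1310 counts and MMP17 477 and 401, at least 549-fold and 142-fold higher in the unirradiated pair. MMP15, another membrane-type enzyme, was higher in SW1990, with an FPKM of 11.2 and 12.4 against 3.38 and 5.04 (log2 difference 1.34, SE 0.17, edgeR adjusted p = 0.00565). After radiation, 0 of 3 tested genes of the list were called in either line, beside 4.13% of all genes in SW1990 and 4.7% in PANC-1 cells.

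Among 7 regulators of metalloproteinases, 4 were higher in SW1990 and 1 in PANC-1 cells (43.6% of all genes in either direction), and after radiation 0 of 7 tested were called in SW1990 and 0 of 5 in PANC-1 cells, where all genes gave 4.13% and 4.7%. Of the 4 higher in SW1990, TIMP4 and PCSK5 passed the filter only through that line. TIMP4, the remaining TIMP, had 203 and 214 counts in SW1990 and 0 in both PANC-1 libraries, at least 76.0-fold and 73.7-fold higher in SW1990. PCSK5, a proprotein convertase, had 354 and 332 counts in SW1990 and 0 in both PANC-1 libraries. BSG, or basigin, known as an inducer of metalloproteinases, was the most abundant, at an FPKM of 201 and 212 in SW1990 and 115 and 120 in PANC-1 cells (log2 difference 0.47, SE 0.14, edgeR adjusted p = 0.0495). TIMP4 and TIMP3 thus lay on the SW1990 side, and TIMP1 and TIMP2 on the PANC-1 side.

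**Figure D4:**
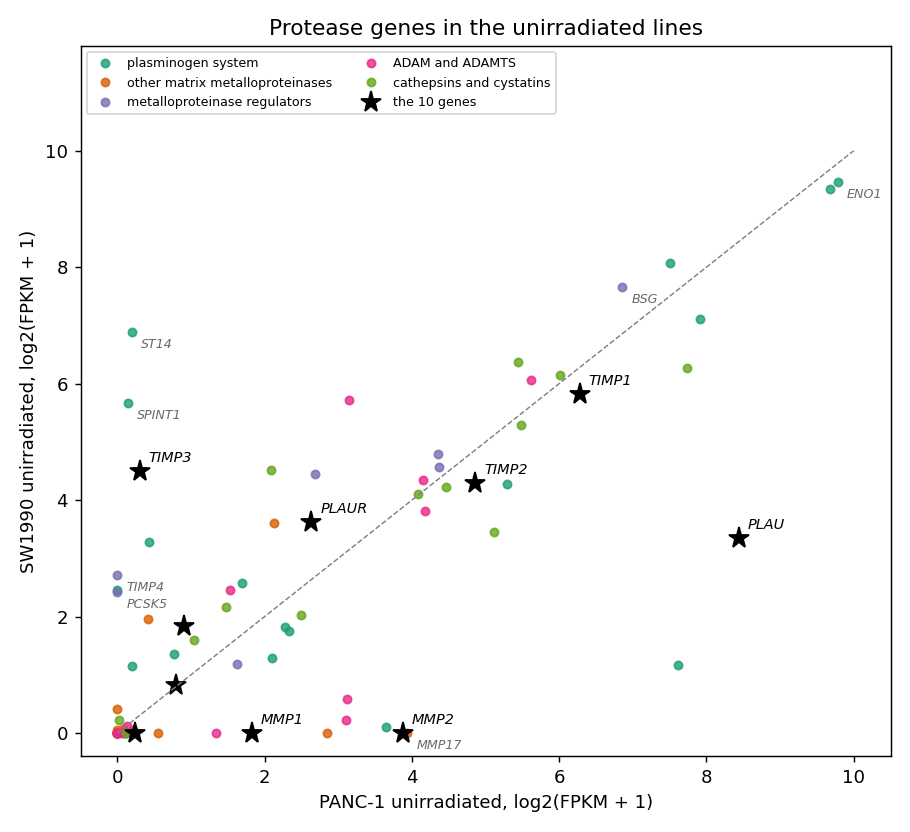
Log2(FPKM + 1) of protease genes in unirradiated PANC-1 (horizontal) and unirradiated SW1990 cells (vertical), 1 library each, with the 10 genes as stars and 5 further lists as coloured points. The dashed line marks equal levels. PLAU, MMP2 and MMP1 lie below the line and TIMP3 above it, while TIMP1 and TIMP2 lie near it.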

How the data were processed

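The deposited table held read counts and FPKM values of 4 libraries, 1 per line and treatment. Per the labels and supplementary methods, libraries were made with an mRNA kit, although the labels also name removal of ribosomal RNA. Reads were trimmed with Trimmomatic 0.36, aligned to GRCh38 with HISAT2 2.0 and summarized with StringTie 1.3.3b. The authors deposited FPKM values normalized for length and library size, and raw counts without normalization; the tool that made the counts is not given in the sources used here. Rows that name no gene (1089 of 59263, between 0.453% and 0.635% of counts) were left out.

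Counts of each irradiated and unirradiated pair were compared with edgeR 4.0.16 (R 4.3.3) at dispersion 0, with TMM scaling, Benjamini-Hochberg adjustment and a value of 0 set to 0.01. The 4 libraries were fitted with edgeR's quasi-likelihood test on genes kept by filterByExpr, where the common coefficient of variation was 0.218. DESeq2 1.42.0 and limma 3.58.1 served as alternatives, as did other scalings, filters, fold change limits and FPKM. The scripts were tested on simulated counts. Fold changes carry a 95% Clopper-Pearson interval, which is exact (scipy 1.17.1), and those of a difference between lines use Poisson variances.

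The members and lists were chosen with earlier results of these data known. From each list (plasminogen system, other matrix metalloproteinases, metalloproteinase regulators, ADAM and ADAMTS, cathepsins and cystatins, AP-1 and ETS factors) the text names genes called after radiation, the most abundant gene and the 2 with the largest called difference between lines. Epithelial, fibroblast, endothelial and leukocyte markers served to check the lines. Protein sequences were not analysed here, and some genes of the lists are not reported here.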

Additional observations from a re-analysis of the deposited data

Results flagged for a closer look

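The log2 change after radiation had opposite signs in SW1990 and PANC-1 cells for 3 of the 7 genes with a value in both lines. Over all genes tested in both lines this was 45.2% of 13228, so the share itself does not stand out. The sets are unlike, since PLAT and TIMP3 are among the 7 but were not tested in PANC-1 cells. For PLAT the log2 change was 1.74 and -0.16, a difference of 1.90 with a counting interval from 1.09 to 2.71. PLAT had an FPKM under 1 in both PANC-1 libraries. For TIMP2 it was -0.10 and 0.38, a difference of -0.47 from -0.60 to -0.34. For PLAU it was 0.32 and -0.04, a difference of 0.36 from 0.18 to 0.55, but the PANC-1 value was 0.05 with library sizes scaled by total counts, which moved all genes by a median of 0.09, and 0.20 from FPKM. In PLAT the PANC-1 interval and in TIMP2 the SW1990 interval includes 0. These differences were not tested, since each line and treatment had 1 library.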

How the results depend on the processing

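Radiation calls depended on the fold change limit and on the spread assumed between replicates. With a limit of 1.5, 2 of the 10 genes were called in SW1990 cells (PLAT and TIMP3), as were 1456 of all genes, and 1776 of all genes in PANC-1 cells. With an assumed coefficient of variation of 0.2, 0 of the 10 genes, 99 of all genes in SW1990 and 103 in PANC-1 cells were called, and with 0.4 these were 0, 15 and 10. Over the 4 libraries, DESeq2 called 39 and limma on log2(FPKM + 1) called 1 of all genes after radiation, where edgeR called 0. The sign reversed for MMP14 in SW1990 cells (-0.40 from FPKM, -0.27 from log2(FPKM + 1)), and for MMP14 over the 4 libraries (-0.05 and -0.03 with limma at a pseudocount of 1 and 0.01). It also reversed for PLAU in PANC-1 cells (0.05 with total counts, 0.20 with either FPKM measure) and for MMP1 in PANC-1 cells and over the 4 libraries (0.01 with total counts in each). In PANC-1 cells, total counts moved the median of all genes by 0.09, as far as PLAU and MMP1 moved, and FPKM moved it by 0.08. The cause of the other reversals was not tested. Between the lines, 7 calls were counted under edgeR, and PLAUR was not called with DESeq2 (1.13). Total counts moved the median of all genes by 0.15 and limma on FPKM by 0.13 or 0.16 toward SW1990. All called genes split into 3890 higher in SW1990 and 4031 higher in PANC-1 in the main fit. This split was 4536 and 3439 with total counts, and 4502 and 3469 with limma on log2(FPKM + 1). In PANC-1 cells, the split of all called genes into higher and lower was 360 and 352 with TMM, 456 and 283 with total counts and 406 and 263 from FPKM. For single genes, 170 tested values kept their direction and their side of the threshold, and 45 values without a test kept their direction. The 170 include radiation values within a line without the filter on low values, where the log2 fold change could not move. They also include MMP1 and MMP2 between the lines, which passed the filter only through PANC-1. These numbers are thus descriptions. The labels give no replicate numbers, so no replicate block was fitted, and the fit of 4 libraries with line as a covariate compares treatments within each line. No library was left out, since each line and treatment had 1. MMP1, MMP2 and MMP7 in SW1990 cells were at or below 3 counts, so changes there were not detectable at this depth.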

Other observations

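Transcription factors of the AP-1 and ETS families, known to act on protease promoters, were called in both kinds of comparison. Of 12 genes tested between the lines, 3 were higher in SW1990 and 6 in PANC-1 cells, where 43.6% of all genes passed this test. ETS1 had an FPKM of 0.267 and 0.273 in SW1990 and 76.6 and 51.1 in PANC-1 cells (log2 difference -7.29, SE 0.28, edgeR adjusted p = 0.000804). ETV1 had an FPKM of 0.0399 and 0.112 against 4.90 and 6.04 (-4.75, SE 0.50). With 6 and 17 counts in SW1990 cells, ETV1 was near 0 there, so its value is a description, given without a test result. ETS2 was the most abundant factor on average and did not pass that test. After radiation, FOSL1 rose in SW1990 cells from 337 to 730 counts (log2 fold change 1.11, lower bound 0.92), whereas in PANC-1 cells it had 3440 and 2331 counts (-0.43, from -0.51 to -0.35), which was not called. In PANC-1 cells FOSB, which passed the FPKM filter only through the irradiated library, rose from 43 to 110 counts (1.49, from 0.96 to 2.03) and JUN fell from 9220 to 3360 counts (-1.33, from -1.38 to -1.27). These were the calls among 9 tested factors in SW1990 and 11 in PANC-1 cells, beside 4.13% and 4.7% of all genes.

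Other protease families were also measured. After radiation, 0 of 5 tested ADAM and ADAMTS genes were called in SW1990 and 0 of 8 in PANC-1 cells, and 0 of 11 cathepsins and cystatins in each line, numbers too small to set apart from the 4.13% and 4.7% of all genes. Of the ADAM and ADAMTS genes, 10 were tested between the lines, with 1 higher in SW1990 and 4 in PANC-1 cells, beside 21.4% and 22.2% of all genes. ADAM9, a membrane sheddase, was the most abundant, at an FPKM of 65.9 and 64.8 in SW1990 and 47.9 and 47.7 in PANC-1 cells. Of the 4 higher in PANC-1, ADAMTS1 and ADAM12 passed the filter on low counts only through that line and had 0 counts in both SW1990 libraries, against 218 and 211 and against 15 and 17 counts in PANC-1 cells. Of the cathepsins and cystatins, 11 were tested, with 2 higher in each line (43.6% of all genes in either direction). The lysosomal aspartic protease CTSD had 75.7 and 117 in SW1990 and 213 and 261 in PANC-1 cells by FPKM. CTSH was higher in SW1990 (log2 difference 2.17, SE 0.20, edgeR adjusted p = 0.00255) and CTSC higher in PANC-1 cells (-1.91, SE 0.15, edgeR adjusted p = 0.00181), each in 2 of 2 pairs.

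Among markers of other cell types, COL1A1 was the most abundant fibroblast marker in PANC-1 cells, at an FPKM of 8.44 and 11.0, and the 8 markers summed to 2.96 and 3.88 in SW1990 and 9.32 and 11.7 in PANC-1 cells. The 5 endothelial markers summed to 0.155 and 0.309 in SW1990 and 6.38 and 5.44 in PANC-1 cells, nearly all of it KDR, with CDH5, PECAM1 and TEK at 0 counts in both PANC-1 libraries. The 7 leukocyte markers summed to 1.77 and 2.25 in SW1990 and 19.5 and 15.2 in PANC-1 cells, most of it CD68, with PTPRC and CD3E at 0 counts in both PANC-1 libraries. The part of these markers in the results was not tested.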
